A study of Mus musculus with 1790 samples.

Results

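The genes of the vesicle release machinery were followed through single-cell RNA profiles of mouse interneurons (INs). They were chosen by symbol alone: every gene row whose name starts with Syt and a digit, Rims, Rimbp, Sv2, Vamp, Stx and a digit, Stxbp, Unc13, or Snap and a digit, or is Cplx1 to Cplx4 or Syn1 to Syn3. This gave 72 of 49586 symbols over 5 tables of counts, of which 70 were annotated as protein coding and 2 (Stxbp3-ps and Vamp7-ps) as pseudogenes. The tables held 65 of them at P15, 65 at P30, 64 and 66 in the E14.5 sorts and 72 in patch-seq, with 57 in all 5. The rule takes families whole, so it also takes members that act elsewhere in the cell, such as Snap91, a clathrin assembly protein, and the syntaxins of endosomes and the Golgi.

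The study sorted Htr3a-GFP+ INs from the upper layers of somatosensory cortex, with (tdTOM+) or without (tdTOM-) the tdTomato that an Hmx3-Cre transgene switches on from the R26 locus, as a mark of INs born in the preoptic area (POA). Each cell carried a label for a transcriptional subtype or was called inconclusive. Neurogliaform cells (NGCs) were the tdTOM+ cells of the Dock5 and Lsp1 labels (Dock5+NGCs and Lsp1+NGCs), and non-NGCs the tdTOM- cells of every other named subtype. At E14.5, tdTOM+/GFP+ cells of the embryonic POA of the same cross were set beside FlashTag+ cells of wild-type POA, which had taken up a dye at the ventricle and were collected within hours as the youngest cells. The dams of the FlashTag+ embryos had surgery, anesthesia and analgesia for the dye injection, and no other treatment is named for any group. By the methods mice were kept on a C57BL background, and the strain of the FlashTag+ cells is taken up with the E14.5 values. The P15 groups were 36 Dock5+NGCs, 33 Lsp1+NGCs, 89 non-NGCs and 20 tdTOM- cells of the Lsp1 label. The P30 groups were 76, 35, 96 and 28 cells in the same order. Patch-seq gave 20 Dock5+ and 27 Lsp1+ tdTOM+ cells from slices of animals of P15 to P25 and P14 to P23, mixed in age within both groups, and the E14.5 sorts gave 418 tdTOM+/GFP+ and 352 FlashTag+ cells. All animals with reporters carried both bacterial artificial chromosome transgenes (Htr3a-GFP and Hmx3-Cre), so tdTOM reports any past activity of that Cre. Brains were pooled for the P15 and P30 sorts, and none of the sources used here ties a cell, patch-seq included, to its animal, so each group was taken as 1 sample with no test, and every fold below compares summed cells with no replicate check. The labels of the subtypes were themselves assigned from expression, so a difference between labels is not independent of the values that made them.

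Transmitter release depends on SNARE proteins that pull the vesicle and the plasma membrane together: a vesicle-associated Vamp, and a syntaxin and Snap25 on the plasma membrane. Synaptotagmins sense the calcium that enters at an action potential, complexins clamp and speed the assembled SNAREs, and RIM, RIM-binding and Munc13 proteins build the active zone where vesicles dock and become ready for release. The SV2 and synapsin families sit on the vesicle. Neurogliaform cells are known for dense axons that release GABA widely into the tissue around them.

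Levels are CPM, the counts of a gene as parts per 1e6 of all counts summed over a group, with exact Poisson 95% intervals that cover counting error only. Log2 folds were taken after 10 CPM were added to both groups, which pulls the folds of low genes towards 0. A gene counted as past 2-fold when its log2 fold was at least 1 in size and the mean of both levels reached 20 CPM. In these summed values, fewer cells with a transcript and less of it in each cell cannot be told apart. The spread over single cells is therefore given beside many of them, though not all. Levels are not compared between genes, since counts per gene also follow how each transcript is captured.

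Most defining markers followed the NGC labels. The NGC markers Lamp5, Ndnf, Npy, Reln, Dock5 and Lsp1 together reached 17297 CPM in P15 NGCs against 2579 in non-NGCs, and 9413 against 3102 at P30. Markers of glutamatergic neurons with a row (4 of 5 at P15, 2 of 5 at P30) summed to 0 CPM in NGCs at both ages and to at most 0.0404 CPM in non-NGCs, and oligodendrocyte markers to 24.6 to 42.9 CPM in all of these groups. Astrocyte markers summed to 28.1 CPM in NGCs against 0.188 in non-NGCs at P15 and to 9.55 against 0 at P30. The gene Dock5 was at 93.8 CPM in Dock5+NGCs and 50.0 in Lsp1+NGCs at P15 and at 41.7 and 1.22 at P30, whereas the gene Lsp1 was at 13.0 and 14.0 CPM and at 11.5 and 13.5, so that gene alone did not tell these labels apart. Cells held a median of 250505.5 counts at P15, 213229 at P30, 356989.5 and 283979 in the tdTOM+/GFP+ and FlashTag+ sorts, and 511936 in patch-seq. The release genes made up 2.07% of all counts in P15 NGCs and 1.59% in non-NGCs, 1.94% and 1.8% at P30, and 0.391% and 0.309% in the E14.5 sorts.

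Of 6 members that differed more than 2-fold between NGCs and non-NGCs at both ages, 4 are taken first: Sv2c, Cplx3 and Rimbp2, higher in NGCs, and Cplx2, lower. Sv2c encodes the SV2 vesicle glycoprotein with the most restricted expression in brain, Rimbp2 ties calcium channels to the active zone, Cplx2 is a main brain complexin, and Cplx3 is the complexin best known from retinal ribbon synapses. Their genes lie on GRCm38 at chr13:95954594-96132577 (Sv2c, minus strand), chr9:57599992-57606281 (Cplx3, minus), chr5:128757791-128953486 (Rimbp2, minus) and chr13:54371349-54383917 (Cplx2, plus). Because the comparison of NGCs with non-NGCs turns on these genes, their RefSeq promoters (GRCm38.p6, 250 bases before to 50 after the start) are printed, 5′ to 3′ on the strand of the gene, with capitals for any match on either strand to 1 of 4 motifs. These were the GC box, written GGGCGG, and the E-box in its palindromic form, written CACGTG. The cyclic AMP response element was searched as TGACGTCA and the TATA box as TATAAA. The windows are chr13:96132528-96132827 (Sv2c), chr9:57606232-57606531 (Cplx3), chr5:128953437-128953736 (Rimbp2) and chr13:54302306-54302605 (Cplx2). The first 3 span the gene starts given above, whereas the RefSeq start used for Cplx2 lies upstream of the start given for that gene, which is from GENCODE.
Sv2c: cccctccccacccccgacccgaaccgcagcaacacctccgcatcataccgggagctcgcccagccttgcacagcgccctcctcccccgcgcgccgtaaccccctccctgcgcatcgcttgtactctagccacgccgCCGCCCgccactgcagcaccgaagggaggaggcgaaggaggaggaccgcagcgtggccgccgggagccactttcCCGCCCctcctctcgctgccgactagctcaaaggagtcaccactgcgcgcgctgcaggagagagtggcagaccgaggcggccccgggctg
Cplx3: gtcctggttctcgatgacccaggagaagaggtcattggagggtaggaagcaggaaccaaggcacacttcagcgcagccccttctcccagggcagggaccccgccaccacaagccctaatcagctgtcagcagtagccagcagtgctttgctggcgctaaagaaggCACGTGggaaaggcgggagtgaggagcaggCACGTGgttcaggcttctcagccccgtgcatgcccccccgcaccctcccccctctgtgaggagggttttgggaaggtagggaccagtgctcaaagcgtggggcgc
Rimbp2: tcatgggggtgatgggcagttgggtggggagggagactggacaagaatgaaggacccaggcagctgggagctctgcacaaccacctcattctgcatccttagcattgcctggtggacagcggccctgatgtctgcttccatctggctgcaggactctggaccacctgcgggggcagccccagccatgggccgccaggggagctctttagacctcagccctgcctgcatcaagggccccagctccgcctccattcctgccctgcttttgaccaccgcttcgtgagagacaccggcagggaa
Cplx2: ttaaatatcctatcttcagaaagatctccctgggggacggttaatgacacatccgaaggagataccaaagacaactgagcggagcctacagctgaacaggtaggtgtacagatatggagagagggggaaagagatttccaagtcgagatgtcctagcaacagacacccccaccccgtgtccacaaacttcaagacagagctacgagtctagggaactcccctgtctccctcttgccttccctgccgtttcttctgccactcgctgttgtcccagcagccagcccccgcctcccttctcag
The Sv2c window held 2 matches to GGGCGG, which reads CCGCCC on the strand shown, and the Cplx3 window 2 matches to CACGTG. The Rimbp2 window and the window at the upstream RefSeq start of Cplx2 matched none of the 4 motifs. Of the 53 members with a RefSeq promoter, 38 (71.7%) held GGGCGG against 35.9% of 27025 promoters, 7 (13.2%) held CACGTG against 7.24%, 2 (3.77%) held TGACGTCA against 1.88%, and 2 (3.77%) held TATAAA against 14.2%. The 4 members thus shared no motif of this set, and a match is a description of letters, not a binding site.

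At P15, 49 of the 65 members passed the filter of 20 CPM and 14 of these (28.6%) were past 2-fold between NGCs and non-NGCs, 9 higher and 5 lower, beside 11.5% of 7143 genes. Their median log2 fold was 0.10, against -0.02 over all genes tested. At P30, 9 of 47 members (19.1%) were past 2-fold, 3 higher and 6 lower, beside 11.7% of 7604 genes, with medians of 0.10 and 0.04. The members that differed were therefore spread over both directions, and the middle of the list lay close to that of all genes. Of 45 members tested at both ages, 29 had the same sign, and 6 were past 2-fold in the same direction at both: Sv2c, Cplx3 and Rimbp2 (higher in NGCs) and Cplx2, Syt13 and Stxbp6 (lower). The ages were sorted and sequenced apart, but the labels at both ages came from the same adult reference.

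**Figure D1:**
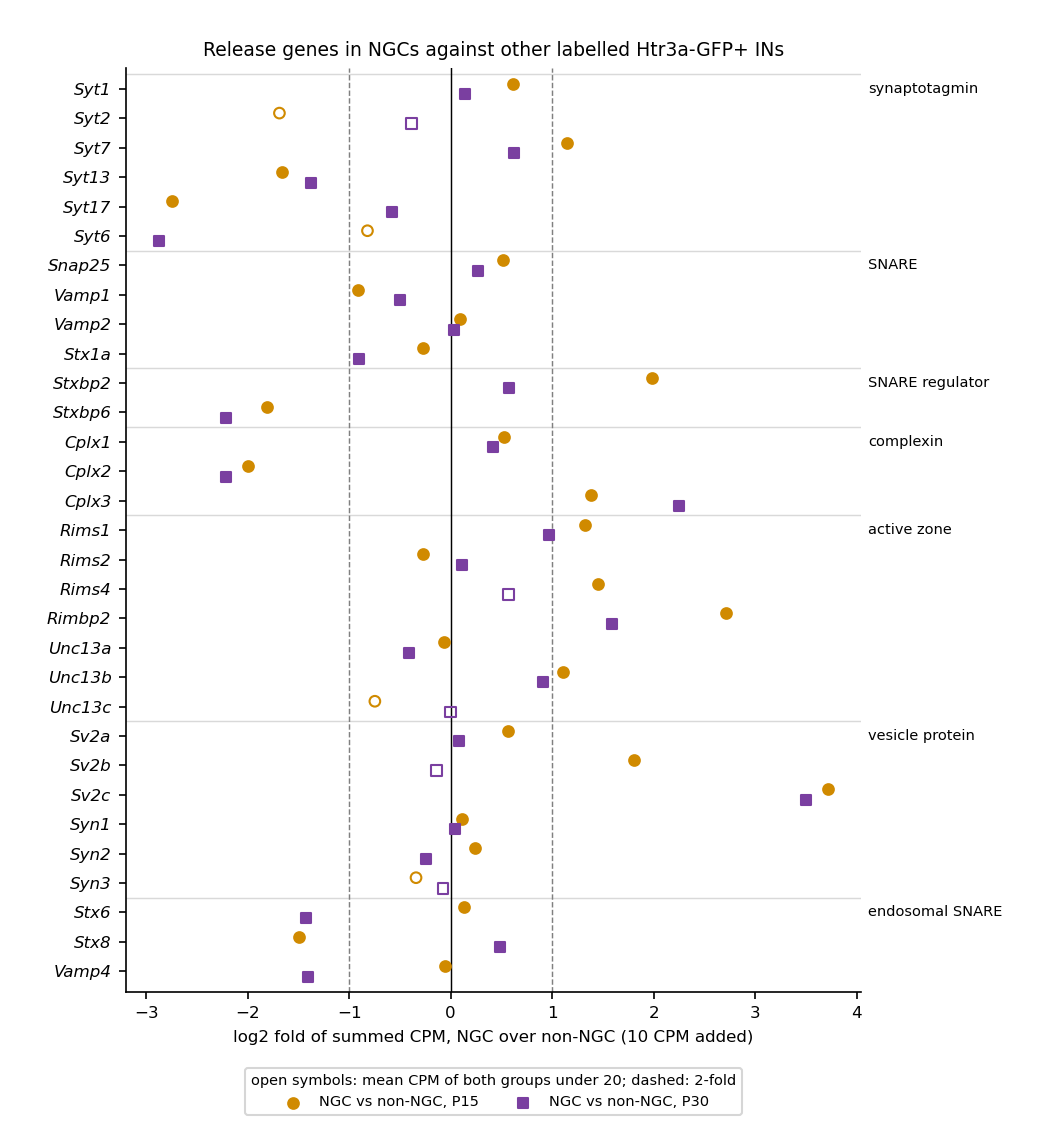
Log2 fold of summed CPM (10 CPM added) of NGCs over non-NGCs for release genes grouped by role, at P15 and P30; filled symbols have a mean of at least 20 CPM, open ones do not, and dashed lines mark 2-fold. Sv2c lies furthest to the right at both ages (3.71 and 3.50), and Cplx2 lies to the left at both (-1.99 and -2.22).

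On the vesicle, the groups differed within the SV2 family. Single P15 NGCs held 14.3 to 4884 CPM of Sv2c with a median of 759.2, and non-NGCs 0 to 1818 with a median of 9.18. The ranges overlapped, but only 2 of 89 non-NGCs (2.25%) reached the NGC median, and every NGC lay above the median of the non-NGCs. At P30 the medians were 342.6 and 7.985 CPM, and 3 of 96 non-NGCs (3.12%) reached the NGC median. Sv2c made up 31.3% (31 to 31.7) of the SV2 counts of P15 NGCs and 4.39% (4.19 to 4.59) of those of non-NGCs, and 26.6% and 2.65% at P30. Sv2a, the SV2 of nearly all neurons, was at 2091 against 1414 CPM at P15 and 1460 against 1375 at P30, with log2 folds of 0.56 and 0.09. Sv2b was past 2-fold at P15 (50.3 against 7.29 CPM, log2 1.80) but had counts in only 16 of 69 NGCs, and at P30 it was at 5.59 and 7.15 CPM, under the filter. Synapsins, which tether vesicles in the reserve pool, stayed within 2-fold: Syn1 gave log2 folds of 0.11 and 0.04 and Syn2 of 0.24 and -0.24. Syn3 lay under the filter, at 2.96 and 6.42 CPM at P15.

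Share of cells with a count follows depth, so each cell was drawn down to 132413 (P15) or 136253 (P30) counts. All 64 P15 NGCs deep enough still held Sv2c (95% interval 94.4 to 100%; 69 of 69 unthinned) against 53 of 78 non-NGCs (67.9%, 56.4 to 78.1; 80.9% unthinned). At P30 the shares were 94.1% (87.5 to 97.8; 95.5% unthinned) and 62.4% (51.2 to 72.6; 69.8% unthinned). Most non-NGCs with Sv2c thus held a few counts, and the groups differed in amount more than in presence.

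**Figure D2:**
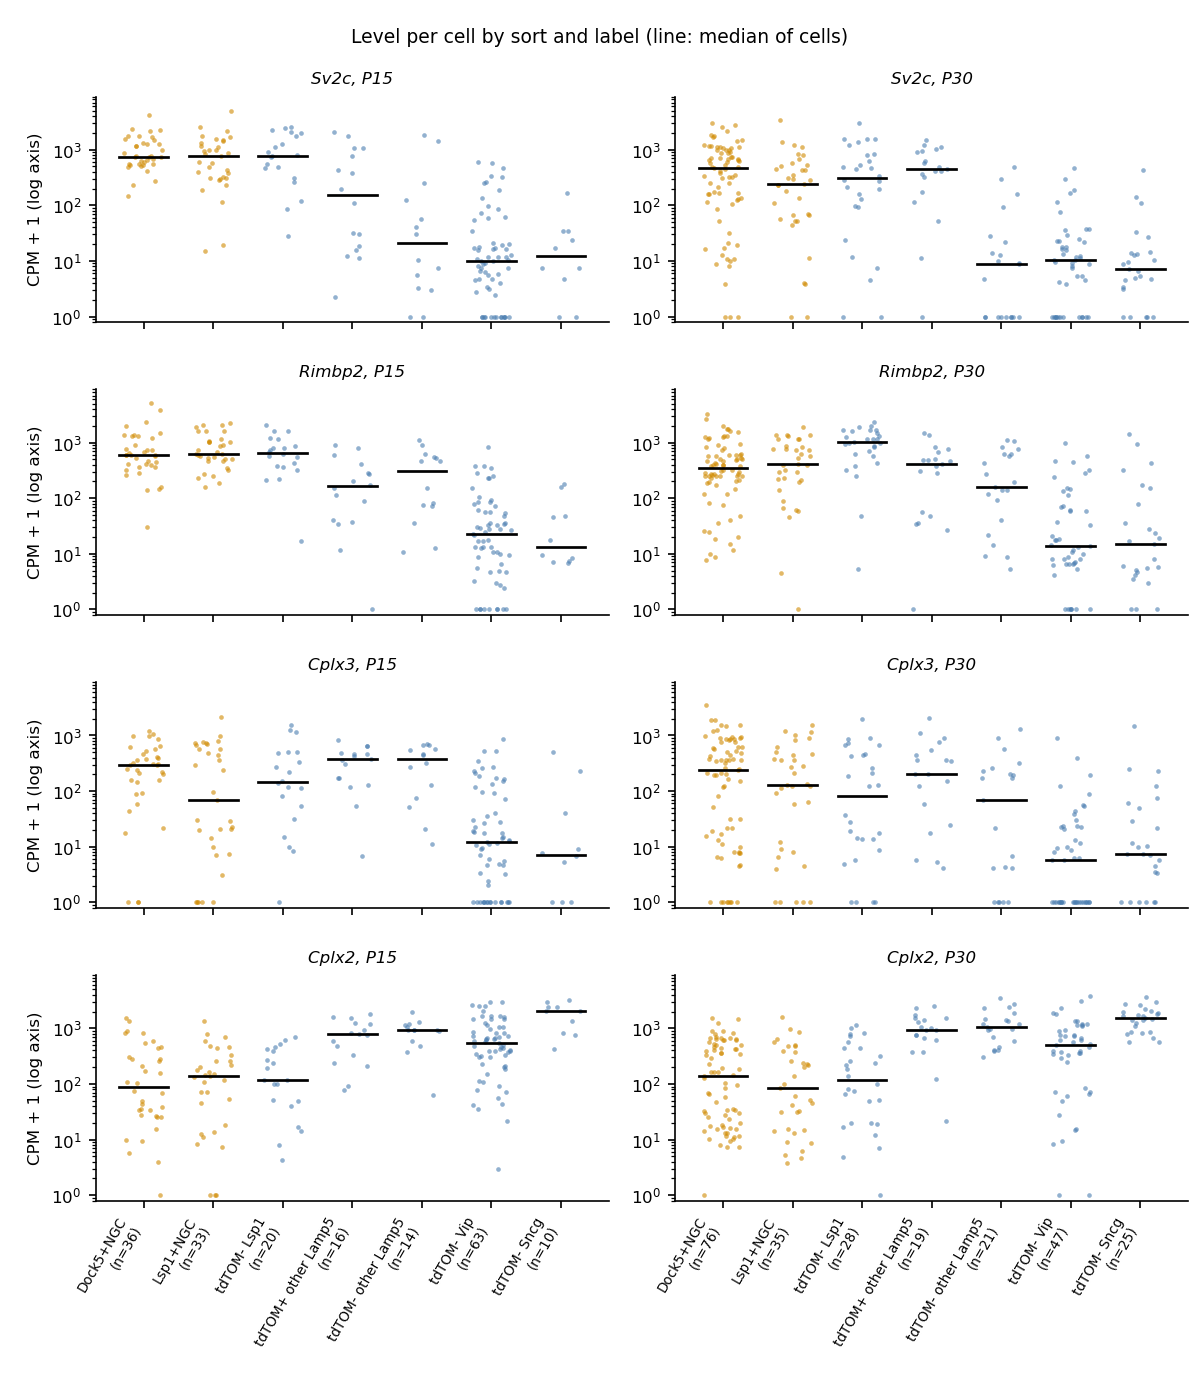
CPM in each cell, on a log scale after 1 is added, of Sv2c, Rimbp2, Cplx2 and Cplx3 in the labelled groups of P15 and P30, with a bar at each group's median. For Sv2c at P15, Dock5+NGCs, Lsp1+NGCs and tdTOM- cells of the Lsp1 label have medians of 752.6, 764.9 and 782.5 CPM, above the non-NGC groups, while the ranges of cells overlap.

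Among complexins, NGCs held less Cplx2 and more Cplx3. Cplx2 was at 207.4 CPM (201.2 to 213.8) in P15 NGCs and 856.4 (845.4 to 867.6) in non-NGCs, with cell medians of 116.5 and 687.8, and 8 of 69 NGCs reached the non-NGC median. At P30 it was at 250.5 against 1202 CPM, and 8 of 111 NGCs reached the non-NGC median. Cplx3 was at 366.3 against 134.3 CPM at P15 (log2 1.38) and 491.6 against 95.5 at P30 (log2 2.25), with cell medians of 238.3 against 13.17 and 211.1 against 6.407. Cells of both groups ranged from 0 upwards for Cplx3, and 16 of 89 non-NGCs at P15 and 12 of 96 at P30 reached the NGC median. Cplx1, the other main brain complexin, gave log2 folds of 0.53 and 0.42. As a share of complexin counts, Cplx2 was 13.6% (13.2 to 14) in P15 NGCs and 51.9% (51.5 to 52.4) in non-NGCs, and 17.6% and 66.7% at P30. Cplx3 was 24% against 8.15% at P15, and 34.6% against 5.3% at P30.

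**Figure D3:**
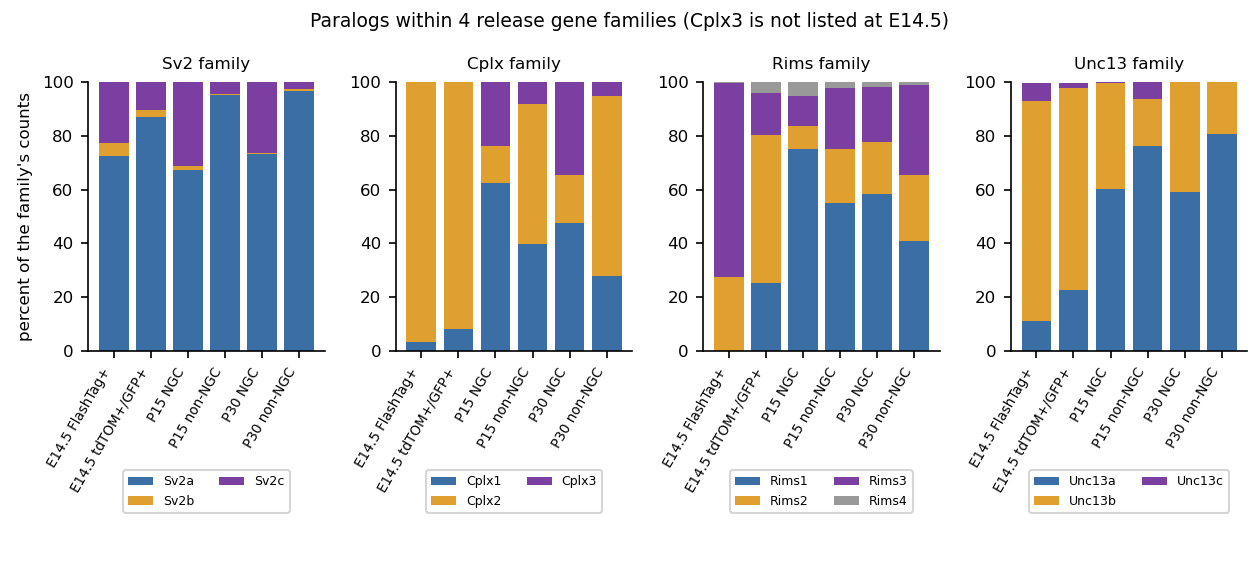
Share (percent) of each paralogue in the summed counts of its family, for the SV2, complexin, RIM and Munc13 families in each group; Cplx3 has no row in the E14.5 values. In NGCs of both ages the Sv2c and Cplx3 parts are larger and the Cplx2 part smaller than in non-NGCs (Sv2c 31.3% against 4.39% and Cplx2 13.6% against 51.9% at P15).

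At the active zone, Rimbp2 was at 754.4 CPM (742.5 to 766.5) in P15 NGCs and 106.3 (102.4 to 110.3) in non-NGCs, a log2 fold of 2.72. Its P15 cells ranged from 29.93 to 5231 CPM (median 608.6) and from 0 to 1105 (median 27.26), so every NGC lay above the median non-NGC and 4 of 89 non-NGCs reached the NGC median. At P30 the log2 fold was 1.59 (513.1 against 164.3 CPM), and 17 of 96 non-NGCs reached the NGC median. Of the RIMs, scaffolds that recruit vesicles and channels, Rims1 made up 75% (74.3 to 75.6) of RIM counts in P15 NGCs and 55% (54.1 to 55.8) in non-NGCs, and 58.4% against 40.9% at P30. Its level was 678.8 CPM (667.5 to 690.2) against 265.9 (259.7 to 272.1) at P15, past 2-fold (log2 1.32), and 463.7 against 232.1 at P30, within 2-fold (log2 0.97). Its P15 cell medians were 534 and 169 CPM, and 12 of 89 non-NGCs reached the NGC median. Rims2 stayed within 2-fold (log2 -0.27 and 0.12), and Rims4, a short RIM, was past 2-fold at P15 alone (48.7 against 11.5 CPM, log2 1.45). Of the Munc13 genes, whose proteins prime vesicles, Unc13b was 39.3% (37.5 to 41.1) against 17.5% (16.2 to 18.8) of the counts at P15, and 40.8% against 19.2% at P30. Its log2 folds were 1.10 (56.7 against 21.0 CPM) and 0.91 (73.3 against 34.3), and those of Unc13a were -0.07 and -0.41. The P15 cell medians of Unc13b were 1.655 and 0 CPM, and 34 of 89 non-NGCs reached the NGC median. Unc13c had 0.593 and 7.78 CPM at P15 and no count in either group at P30.

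The genes of the SNARE core named here stayed within 2-fold at both ages. Snap25 gave log2 folds of 0.51 and 0.27, Vamp2 of 0.10 and 0.03, Vamp1 of -0.91 and -0.50, and Stx1a of -0.27 and -0.91. Stxbp2, a syntaxin-binding protein, was past 2-fold at P15 (81.1 against 13.0 CPM, log2 1.99) and within it at P30 (131.8 against 85.4, log2 0.57). Its P15 cell medians were 4.38 and 0 CPM, the highest NGC held 1865 CPM, and 28 of 89 non-NGCs reached the NGC median. Stxbp6 (amisyn), which binds SNAREs in place of a Vamp, was lower at both ages (8.74 against 55.6 CPM, log2 -1.81, and 4.10 against 55.4, log2 -2.21). Its median cell held 0 CPM in every one of these 4 groups, and 1 cell gave 58.8% of its NGC counts at P15 and 65.5% at P30. The tdTOM- labels of P15 gave 127.8 CPM in 10 Sncg, 95.0 in 14 other Lamp5 and 18.6 in 63 Vip cells, and those of P30 143.5 in 25 Sncg, 23.9 in 21 other Lamp5 and 5.63 in 47 Vip cells.

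Of the synaptotagmins, Syt1, the main fast calcium sensor of forebrain synapses, stayed within 2-fold at 4741 against 3095 CPM at P15 (log2 0.61) and 5031 against 4568 at P30 (log2 0.14). Its P15 cell medians were 4871 and 3083 CPM, and 64 of 69 NGCs reached the non-NGC median. Syt7, a slow calcium sensor, was at 224.3 against 95.7 CPM at P15, past 2-fold (log2 1.15), and 119.9 against 74.2 at P30, within it (log2 0.62). Syt2, a fast sensor like Syt1, was under the filter at both ages (2.32 against 29.7 CPM at P15). Syt13, a synaptotagmin that does not depend on calcium, was lower in NGCs at both ages, at 114.7 against 383.2 CPM (log2 -1.66) and 91.7 against 253.6 (log2 -1.37). Its cell medians were 53.99 against 268.6 CPM at P15, where 10 of 69 NGCs reached the non-NGC median, and 5.78 against 81.3 at P30. Syt17, also without calcium binding, was lower at P15 (21.6 against 201.3 CPM, log2 -2.74) but within 2-fold at P30 (57.9 against 91.4, log2 -0.58). Syt6 was lower at P30 (0.414 against 66.1 CPM, log2 -2.87), where 25 of 96 non-NGCs and 7 of 111 NGCs held a count. Syt6 was at 172.8 CPM (163.9 to 182.1) in tdTOM- Sncg cells, 19.4 in tdTOM- Vip cells and 6.60 in tdTOM- cells of other Lamp5 labels, and against the last alone its log2 fold was -0.67.

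Endosomal and Golgi SNAREs differed at 1 age each. Stx8 was lower in NGCs at P15 (8.35 against 41.7 CPM, log2 -1.50) and within 2-fold with the opposite sign at P30 (0.49). At P15 it had counts in 17 of 69 NGCs (24.6%) and 22 of 89 non-NGCs (24.7%), and both cell medians were 0 CPM. Stx6 was lower at P30 (24.1 against 81.4 CPM, log2 -1.42) but not at P15 (0.13), and Vamp4 was lower at P30 (45.9 against 137.8, log2 -1.40) but not at P15 (-0.06).

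Of 39 other genes of the release cycle listed with these members, such as Rab3, synaptophysin and bassoon genes, 3 of the 35 tested at P15 were past 2-fold and lower, and at P30 1 of 36 was higher and 5 were lower. Over all genes tested, 11.5% at P15 and 11.7% at P30 were past 2-fold in either direction. Cadps2, which primes dense-core vesicles, was at 15.7 against 417.4 CPM at P15 (log2 -4.06) and 43.3 against 596 at P30 (-3.51). Synpr, a vesicle protein related to synaptophysin, was at 82.5 against 1241 CPM (-3.76) and 100.2 against 772.7 (-2.83). Doc2a was lower at both ages (-1.05 and -1.27), and Sncg and Snapin were lower (-3.20 and -1.15) and Rab3b higher (1.58) at P30. Sncg also names a class of labels among the non-NGCs, so its fold follows from the grouping and is no separate result.

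The non-NGCs joined labels that differ among themselves, and which of them stood opposite the NGCs set some folds (these subsets were chosen after the values were seen). Against tdTOM- cells of other Lamp5 labels alone (14 at P15, 21 at P30), Sv2c kept log2 folds of 2.37 and 3.26 and Cplx2 of -2.04 and -2.38. Against the same cells the fold of Cplx3 was -0.04 at P15 and 1.22 at P30, and that of Rimbp2 was 1.01 and 0.49. Cplx3 was at 378.1 CPM in those P15 cells, close to the 366.3 of NGCs, and at 82.8 in tdTOM- Vip cells. Syt17 turned from -2.74 to 0.23 against other Lamp5 cells at P15 and was -3.11 against Vip cells. Stxbp6 was within 2-fold against Vip cells (-0.61 at P15, -0.15 at P30). Syt13 gave -1.76 at P15 and -1.70 at P30 against Vip cells, and -1.47 and -1.20 against other Lamp5 cells. Of the 6 members past 2-fold at both ages, Sv2c, Cplx2 and Syt13 were past 2-fold against both tdTOM- subsets at both ages. With whole sorts in place of labels, 2 members were past 2-fold at P15 (196 against 194 cells, beside 1.13% of all genes) and 5 at P30 (301 against 280, beside 2.68%). Whole sorts add inconclusive cells to both sides, cells of other Lamp5, Vip and Sncg labels to the tdTOM+ side, and cells of the Lsp1 label (and at P15 the Dock5 label) to the tdTOM- side. In them the log2 folds of Sv2c were 1.00 and 1.52 and those of Cplx2 were -0.27 and -1.17.

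In the NGC comparison sort and label go together, and cells in which they part give the levels of some genes by both. Cplx3 in such cells, and Rimbp2 in tdTOM+ cells of other Lamp5 labels, are not given here in numbers. The tdTOM+ Vip cells are left out as well. tdTOM- cells of the Lsp1 label held 972 CPM of Sv2c at P15 (945.5 to 999) and 636.9 at P30, 652.5 and 984.9 of Rimbp2, and 212.9 and 266.8 of Cplx2, on the side of the NGCs for all 3 genes. In turn, tdTOM+ cells of other Lamp5 labels held 806 CPM of Cplx2 in 16 cells at P15 and 981.9 in 19 at P30, on the side of the non-NGCs. Their Sv2c was 423 and 562.5 CPM, against 180.3 and 46.5 in tdTOM- cells of the same labels, so at P30 Sv2c in these cells was like that in NGCs. The tdTOM+ and tdTOM- cells of the Lsp1 label also differed in markers. Of the 6 NGC markers, 2 were past 2-fold higher in the tdTOM+ cells at each age and 0 lower. At P15 these were Ndnf (990.8 against 343.8 CPM) and Dock5 (50.0 against 8.57), and at P30 Ndnf (939 against 271.3) and Reln (1787 against 690.2). Between these cells, 1 of 44 members tested at P15 was past 2-fold (2.27%, beside 18.6% of all genes): Stx16, a Golgi syntaxin, at 50.1 against 18.3 CPM, log2 1.09. At P30, 9 of 49 were (18.4%, beside 24.4%), 5 higher in tdTOM+ cells and 4 lower. The 5 were Stx17 (log2 2.09), Syt5 (1.65), Stx8 (1.64), Rims2 (1.24) and Stxbp4 (1.05). Lower were Stx2 (-2.29), Sv2b (-2.12, 15.1 against 98.8 CPM), Rims4 (-1.50) and, just past the line, Stxbp5l (53.3 against 117 CPM). Some of these rested on few cells: 1 cell gave 60.7% of the Stx17 counts of tdTOM+ cells, and 1 cell 58.4% of the Stx2 counts of tdTOM- cells. Stx8 had counts in 7 of 35 tdTOM+ and 7 of 28 tdTOM- cells, and both cell medians were 0 CPM. None of the 9 was past 2-fold at P15, and these shares did not exceed those of all genes. Of the other release genes, 4 were past 2-fold at each age, 2 in each direction; at P15 Napa (1.34) and Cask (1.11) were higher and Doc2b (-1.53) and Sypl (-2.26) lower, and at P30 Cadps2 (1.33) and Rab3b (1.07) were higher and Erc1 (-1.44) and Erc2 (-1.04) lower.

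Between Dock5+NGCs and Lsp1+NGCs most of these genes stayed within 2-fold. At P15, 6 of 47 members (12.8%) were past 2-fold, 3 in each direction, beside 14.8% of 6966 genes, and at P30 2 of 45 (4.44%), 1 in each direction, beside 14% of 7448. Median log2 folds were 0.05 and -0.05, against -0.01 and -0.02 over all genes. Sv2c was at 976.1 CPM in Dock5+NGCs and 978.1 in Lsp1+NGCs at P15 and at 607.8 and 378 at P30, and Cplx2 at 221.5 and 192.1, and 273.7 and 205.1. Cplx3 gave log2 folds of 0.21 and 0.49 and Rimbp2 of -0.09 and 0.07. These 4 members, past 2-fold between NGCs and all non-NGCs joined, thus stayed within 2-fold between the NGC labels in sorted cells.

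**Figure D4:**
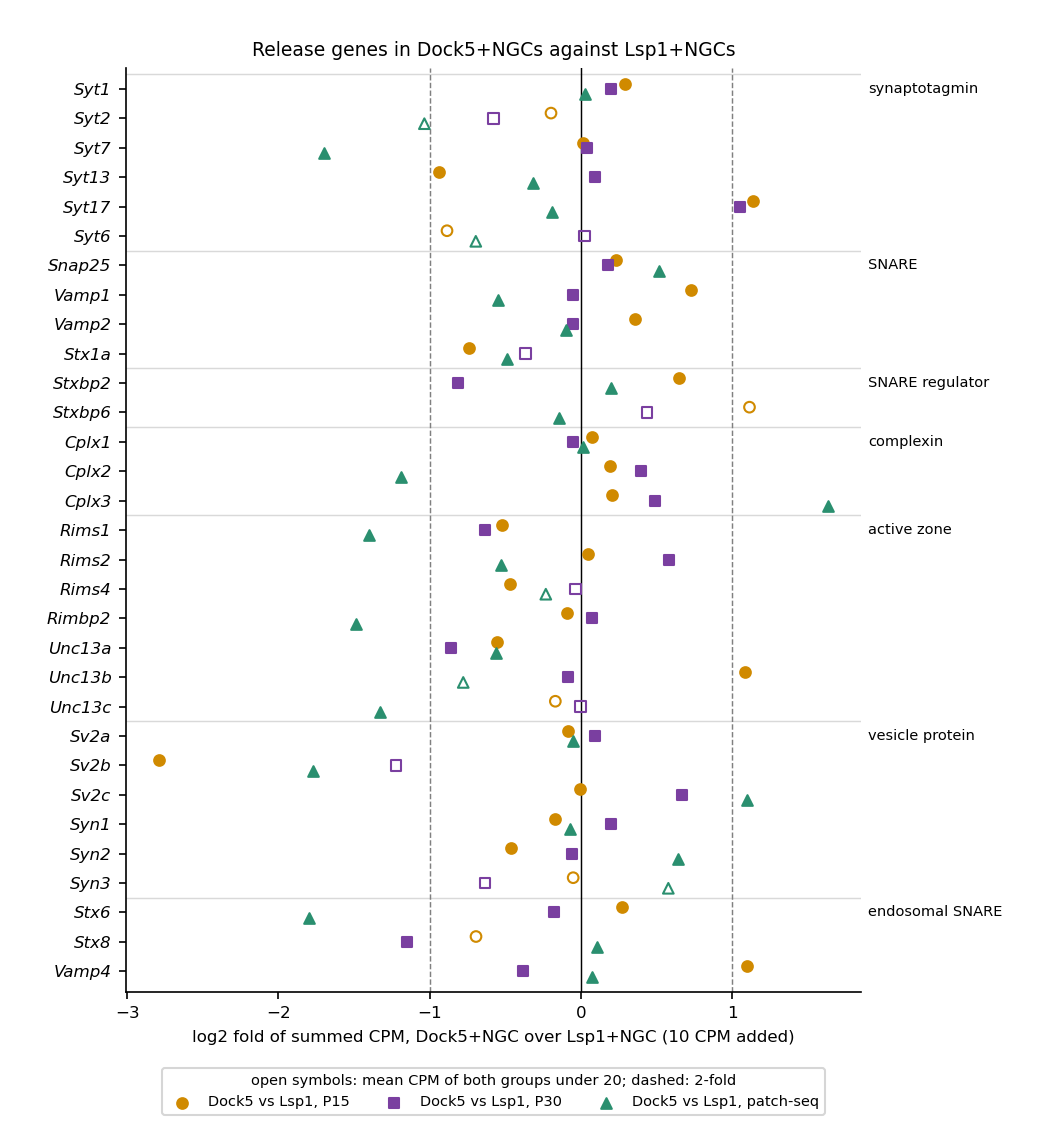
Log2 fold of summed CPM (10 CPM added) of Dock5+NGCs over Lsp1+NGCs for release genes grouped by role, in sorted cells of P15 and P30 and in patch-seq; open symbols have a mean under 20 CPM and dashed lines mark 2-fold. Sv2b lies to the left in all 3 collections (-2.79, -1.22 and -1.77; at P30 under the filter), and most sorted points lie within the dashed lines.

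Sv2b differed between the NGC labels in few cells. At P15 Dock5+NGCs held 5.78 CPM of it (4.42 to 7.42) and Lsp1+NGCs 98.9 (92.8 to 105.4), where 10 of 33 cells held counts (30.3%, 15.6 to 48.7) and the highest reached 1169 CPM. Dock5+NGCs held counts in 16.7% of cells (6.37 to 32.8) and reached 134.9 CPM, so the groups overlapped at 0. At P30 it was at 0.730 against 15.1 CPM, under the filter. Plate rows 1 to 20 gave a P15 fold of -4.15 and rows 21 to 40 one of -0.65, within 2-fold. Syt17 was past 2-fold at both ages (32.8 against 9.40 CPM, log2 1.14, and 72.3 against 29.7, log2 1.05), but at P30 it was -0.33 on rows 21 to 40. The other members past 2-fold at P15 were Vamp4 (log2 1.10), Unc13b (1.08), Syt14, a synaptotagmin without calcium binding (-1.67), and Snap29, a SNARE of many membranes (-1.79). One cell held 53.6% of the Snap29 counts of Lsp1+NGCs, and Snap29 and Unc13b changed sign on rows 21 to 40 (0.45 and -0.28). At P30 Stx8 was lower (23.6 against 64.4 CPM, log2 -1.15). Of the other release genes, Rab3b (1.00) and Sypl (1.65) were past 2-fold at P15, 2 of 33 tested beside 14.8% of all genes. At P30 none of 33 was, beside 14% of all genes.

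Rims1 gave -0.52 at P15 and -0.63 at P30, within 2-fold, with cell medians of 318.2 against 660.9 CPM and 244.4 against 474.9. Unc13a gave -0.55 and -0.86. The remaining core members lay between -0.74 (Stx1a at P15) and 0.73 (Vamp1 at P15) where they passed the filter.

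In patch-seq cells, taken by pipette from slices and made with a different kit, 13 of 49 members (26.5%) were past 2-fold between Dock5+ and Lsp1+NGCs, 3 higher and 10 lower, beside 15.5% of 7139 genes. Some markers of other cell types moved with the labels here. Oligodendrocyte markers summed to 1261 CPM in Dock5+ and 6252 in Lsp1+ cells, with 3 of 4 past 2-fold, and glutamatergic markers to 19.6 and 186.3 CPM. Astrocyte markers summed to 301 and 366.9 CPM, with 0 of 4 past 2-fold. The gene Dock5 was at 4.78 and 3.53 CPM in these cells and did not follow its label, whereas the gene Lsp1 was at 5.02 and 53.6 CPM. One Lsp1+ cell held 15968484 counts, or 30% of its group. Without that cell 8 members were past 2-fold, 7 of them among the 13, and the part of the other markers' cells in these folds was not tested. Higher in Dock5+ cells were Cplx3 (1374 against 436.6 CPM, log2 1.63), Stx16 (1.35) and Sv2c (69.7 against 27.1 CPM, log2 1.10). The median Sv2c cell went the other way (9.638 against 26.93 CPM), and the mean of single cells gave -0.36. Among the lower members were Stx6 (-1.80), Sv2b (-1.77), Syt7 (-1.70), Rimbp2 (-1.49), Rims1 (-1.40), Unc13c (-1.33), Cplx2 (-1.19), Stx4a (-1.18) and Vamp8 (-1.02).

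For Sv2b and Cplx2 one Lsp1+ cell gave 76.4% and 59.8% of the group's counts, and without the cell of most counts their folds were -0.36 and -0.44. Rims1 and Rimbp2 kept -1.26 and -1.19 without it, and their cell medians were 19.0 against 152 CPM and 5.641 against 33.87. For Rims1, 4 of 20 Dock5+ cells reached the Lsp1+ median and 26 of 27 Lsp1+ cells the Dock5+ median. Rims1 was thus lower in Dock5+NGCs in all 3 collections, and past 2-fold in patch-seq alone. Such agreement was not general. Between the NGC labels, 21 of 42 members tested at both P15 and P30 had the same sign. The same held for 25 of 42 between P15 and patch-seq and 20 of 41 between P30 and patch-seq. Past 2-fold in the same direction were Sv2b alone at P15 and in patch-seq, and 0 members at P30 and in patch-seq. The fast machinery stayed within 2-fold in patch-seq too, with log2 folds of 0.03 for Syt1, 0.01 for Cplx1, -0.10 for Vamp2 and 0.52 for Snap25. Of the other release genes 4 of 34 tested were past 2-fold and lower, beside 15.5% of all genes in either direction: Apba2 (-1.91), Erc2 (-1.65), Bsn (-1.63) and Cask (-1.03).

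At E14.5, the tdTOM+/GFP+ cells of the POA held more of the release genes than FlashTag+ cells. Of 63 members with a row for both sorts, 32 passed the filter and 16 (50%) were past 2-fold, 12 higher and 4 lower, beside 21.4% of 7573 genes. Their median log2 fold was 0.64, against -0.06 over all genes. The sorts differed in maturity: the 7 progenitor markers summed to 238 CPM in tdTOM+/GFP+ and 6179 in FlashTag+ cells, and Dcx, Tubb3 and Stmn2 to 4225 and 766 CPM. Genotype, dye, the surgery and drugs given for the dye injection, and chip run differed with the sort as well, and cannot be told apart from it. The methods keep the mice on a C57BL background but name CD1 mice for the dye injections. The label of the FlashTag+ cells gives C57BL instead, so whether strain also differed between the sorts is not settled here.

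Synaptotagmins made up 5 of the 12 higher members. Syt1 was at 350.9 CPM (348 to 353.9) against 103.5 (101.6 to 105.5), log2 1.67, with cell medians of 147.5 and 0. Syt6 was at 65.0 against 4.25 CPM (log2 2.40), and after thinning to 168471 counts 37.5% of tdTOM+/GFP+ cells (32.8 to 42.4; 43.1% unthinned) and 1.04% of FlashTag+ cells (0.215 to 3.01; 0.852% unthinned) held it. Syt4, a synaptotagmin of dense-core vesicles and immature neurons, gave 2.26, Syt16 1.63 and Syt5 1.38. Among SNAREs and partners, Snap25 gave 2.06 (121 against 21.5 CPM) and Snap47 1.37, and the clathrin assembly gene Snap91 gave 2.08. On the vesicle, Sv2a gave 2.56 (150.1 against 17.1 CPM) and Syn1 1.02. At the active zone, Rims2 gave 1.59. Rims1 had 1 count in 352 FlashTag+ cells and was found in 113 of 418 tdTOM+/GFP+ cells (27%), at 29.9 CPM and under the filter.

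Of the 4 members higher in FlashTag+ cells, Snap23, Vamp3 and Stx2 act in many cell types, while Syt11 was also at 1407 CPM in P30 NGCs. Snap23, the Snap25 relative of non-neuronal cells, was at 8.10 against 53.8 CPM (log2 -1.82), Syt11 at 486.4 against 1175 (-1.26), Vamp3 at 55.7 against 134.1 (-1.13) and Stx2 at 27.6 against 69.6 (-1.08). Within their pair, Snap25 was 93.7% (93.4 to 94.1) of the counts in tdTOM+/GFP+ cells and 28.5% (27.5 to 29.5) in FlashTag+ cells. Among the genes of release that P30 NGCs held in quantity, several were low in both embryonic sorts: Cplx1 was at 8.05 and 1.51 CPM, Vamp1 at 0.668 and 5.79, Sv2c at 18.1 and 5.32 and Rimbp2 at 13.6 and 4.01. Cplx2 was at 88.8 against 45.9 CPM and Unc13b at 78.4 against 70.0, both within 2-fold. Of the 39 other release genes 22 were tested and 14 were higher, such as Rab3c (2.63), Cadps (2.56), Dnm1 (2.12) and Pclo (2.04), and Sypl was lower (-1.30). Over all genes tested 21.4% were past 2-fold in either direction.

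Between P30 NGCs and the E14.5 tdTOM+/GFP+ cells, 32 of 48 members tested (66.7%) were past 2-fold, 28 higher at P30 and 4 lower, beside 40.7% of 7614 genes. The median log2 fold was 1.41, against -0.01 over all genes. These levels were scaled to the rows that both tables share, so they differ slightly from those above, and age, region, sort and chip run cannot be told apart. This comparison shares its embryonic cells with the one before it and its NGCs with that against non-NGCs. Dcx, Tubb3 and Stmn2, markers of young neurons, were all past 2-fold lower at P30.

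**Figure D5:**
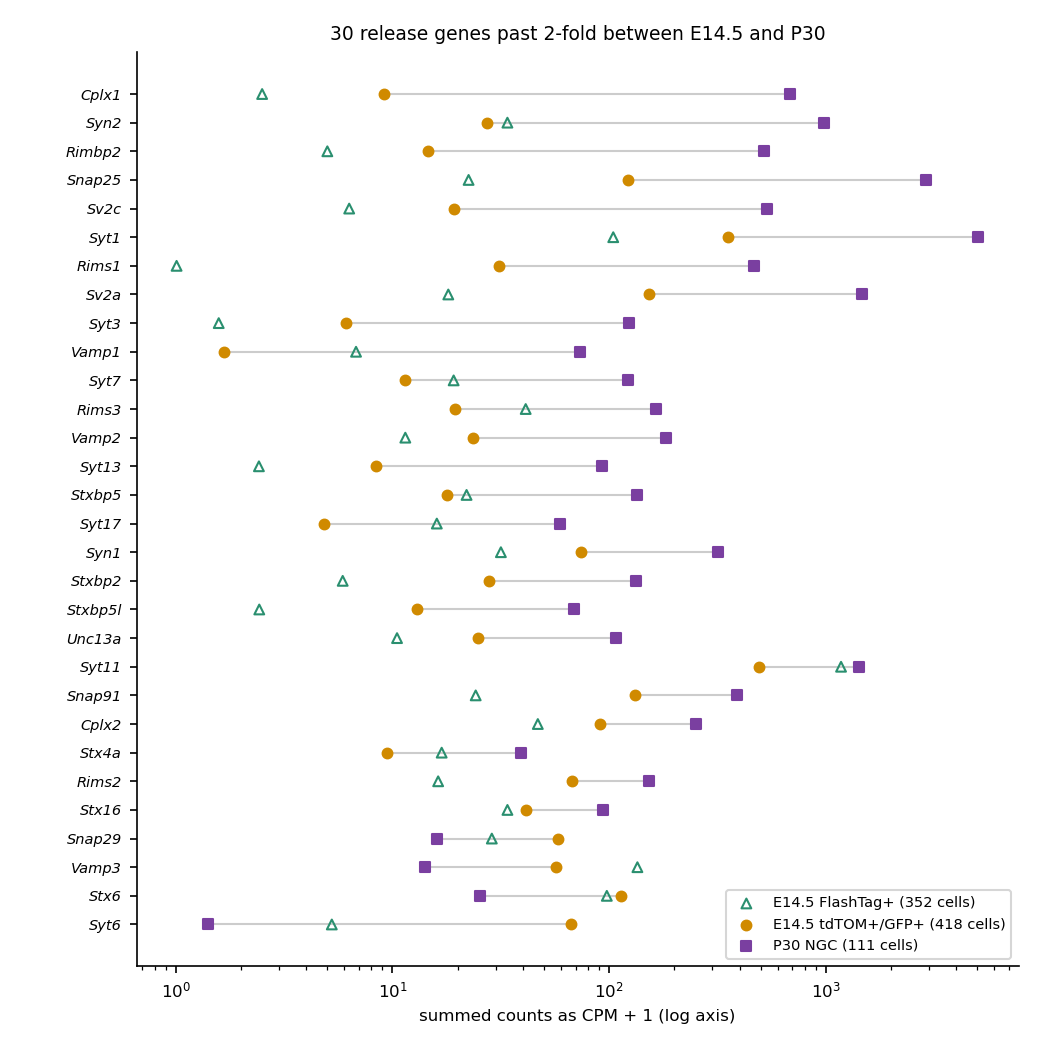
Summed CPM, on a log axis after 1 is added, of 30 of the 32 release genes past 2-fold between E14.5 tdTOM+/GFP+ cells (circles) and P30 NGCs (squares), in order of their fold, with FlashTag+ cells as triangles. Cplx1 goes from 8.11 CPM in the E14.5 tdTOM+/GFP+ cells to 681.8 in P30 NGCs, while Syt6 goes from 65.5 to 0.416.

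The members higher at P30 came from every family of the list. Cplx1 was at 681.8 CPM (672.3 to 691.4) against 8.11 (7.66 to 8.57), log2 5.26, and 98.6% of P30 NGCs against 5.72% of embryonic cells held it at 182985 counts per cell (99.1% and 6.22% unthinned). Syn2 gave 4.77, Rimbp2 4.48, Snap25 4.47 (2903 against 121.8 CPM), Sv2c 4.27, Syt1 3.80 and Rims1 3.57. For Snap25 and Syt1, 0 of 418 embryonic cells reached the median of the NGCs. With 3 cells taken as the limit where 0 were seen, this allows a share of up to about 0.718% (3 of 418 cells). That limit is a rough one and narrower than the exact interval used for other shares. The lowest NGCs (515.5 and 1638 CPM) still lay below the highest embryonic cells (1336 and 2787). Sv2a gave 3.20, Syt3 3.12, Vamp1 2.94, Syt7 2.67, Rims3 2.62, Vamp2 2.57, Syt13 2.55, Stxbp5 2.42 and Syt17 2.30. Syn1 (1.97), Stxbp2 (1.95), Stxbp5l (1.81), Unc13a (1.79), Syt11 (1.51), Snap91 (1.50), Cplx2 (1.40), Stx4a (1.39), Rims2 (1.09) and Stx16 (1.02) were also among the 28. Scaling by the median ratio over genes moved the median of all genes to -0.17 and left 30 members past 2-fold, 26 higher and 4 lower.

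Unc13b, at 73.7 and 79.0 CPM, gave -0.09, and Stx1a, under the filter, was at 15.3 and 19.4. Lower at P30 were Syt6 (0.416 against 65.5 CPM, log2 -2.86), Stx6 (24.3 against 113, -1.84), Vamp3 (13.2 against 56.1, -1.51) and Snap29 (15.1 against 57.1, -1.42), of which Vamp3 and Snap29 act in general membrane traffic and Stx6 at the Golgi. Vamp3 made up 70.8% (70 to 71.6) of the Vamp1, Vamp2 and Vamp3 counts in the embryonic cells and 4.92% (4.45 to 5.42) in P30 NGCs. Of the 39 other release genes 34 were tested, 24 were higher at P30, led by Syngr1 (4.06), Sncb (3.92), Rph3a (3.89) and Rab3c (3.58), and Snapin was lower (-2.08). Over all genes tested 40.7% were past 2-fold in either direction.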

How the data were processed

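Single cells were profiled with C1 HT chips (sorts) or SMART-Seq with pipette capture (patch-seq). The authors deposited whole-number counts per gene and cell, not normalized. Reads were aligned to mm10 with STAR, collapsed by molecular barcode with UMI-tools, and counted over exons with strand. Whether the patch-seq counts, which reached 15968484 in 1 cell, are molecules or reads is not settled here. If they are reads, the patch-seq intervals are too narrow and patch-seq depth is not comparable with that of the sorts. The droplet tables were not used here. Subtype labels were the authors' own. Counts were summed per group and scaled to CPM. Exact 95% intervals were Poisson for sums and Clopper-Pearson for shares. Intervals cover counting error only. Each group was 1 sample, since the labels tie no cell to an animal, so the planned comparisons are folds without tests. A fold was log2 of CPM plus 10, counted at 2-fold with a mean of at least 20 CPM. Named genes are all members past 2-fold in a comparison, and the core machinery whatever its values. Some members enter the counts but are not reported here by name. Members and lists were chosen with earlier results of these data known. P15 and P30 tables of 17465 rows shared 11979, so levels were not compared between these ages. Cells the labels call inconclusive entered only the whole-sort alternative. No doublet caller was run, and doublets were not otherwise removed here. Thinning drew each cell to the lower 10th percentile of depth. Alternatives are given in the closing section. The calculation was tested on simulated data. Calculations used pandas 2.3.3 and numpy 2.4.6 under Python 3.11.15, intervals scipy 1.17.1, and plots matplotlib 3.10.9.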

Additional observations from a re-analysis of the deposited data

How the results depend on the processing

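No paired analysis was possible because each group was 1 sample and no result came from a test. Of 102 counts of members past 2-fold under alternatives, 67 stayed within 1.5 times the reported count and 35 did not. With 100 CPM added, which is stricter by construction, the counts were 6 and 4 (NGCs against non-NGCs, P15 and P30), 0, 0 and 1 (Dock5+ against Lsp1+NGCs, P15, P30 and patch-seq), 0 and 0 (Lsp1 label by sort), 5 (E14.5) and 15 (P30 against E14.5). With a mean of at least 100 CPM, which tests fewer genes, they were 8 and 5, 0, 0 and 3, 0 and 0, 5 and 15 in the same order. With whole sorts the NGC counts were 2 and 5. On plate rows 1 to 20, with fewer cells, there were 10 and 12 between NGC labels and 14 and 16 between sorts of the Lsp1 label, and on rows 21 to 40 6 between NGC labels at P30 and 3 between sorts at P15. Thinning gave 1 between NGC labels at P30, 8 in patch-seq and 7 between sorts at P15. Leaving out the 1 Lsp1+ patch-seq cell with the most counts, chosen after seeing the data, gave 8. For the sorts of the Lsp1 label at P15, where 1 member was past 2-fold, 1 CPM added gave 4, no filter 6, the mean of single cells 6, the median ratio 2, and leaving out the cell with the largest count of each gene 2. Of 3036 folds of members under alternatives, 1492 stayed within the counting interval of the reported fold, 1534 moved beyond it, and 10 changed sign from a reported call. Against other Lamp5 labels only, chosen after seeing the data, Cplx3 was -0.045 and Syt17 0.23 at P15. On rows 21 to 40, Snap29 was 0.45 and Unc13b -0.28 (NGC labels, P15) and Syt17 -0.33 (P30), and on rows 1 to 20 Stxbp5l was 0.89 (Lsp1 label by sort, P30). In patch-seq the mean of single cells gave Cplx2 0.11, Sv2c -0.36 and Unc13c 0.17, and thinning gave Sv2c -0.020. Apart from the strictness and cell numbers named, the cause was not tested. With 1 sample a group, no value has a replicate check.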
